A study of Mus musculus with 6 samples.

Results

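The interferon response and the class I antigen presentation pathway were followed through 39 listed genes in neural stem cells of the adult mouse brain. The list held 9 genes of class I antigen presentation, 19 interferon-induced genes, 6 interferon receptor and kinase genes and 5 transcription factors. A gene was measured by probe sets annotated to it and to no other gene, and the brightest of these stood for the gene. Such a probe set was found for 36 of the 39, and not for H2-T23, Ifi44 and Isg15, which were not analysed here. A gene was tested when its mean signal over the arrays reached a log2 value of 6.02, the 40th percentile of all probe sets. On this criterion 27 members were among the 11576 genes tested, out of 18193 genes with a probe set of their own. The 9 members below it were Tap2, Ifit1, Usp18, Oasl2, Oas1a, Mx1, Gbp2, Xaf1 and Irf7.

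The cells came from the ventricular-subventricular zone, the layer beside the lateral ventricles where new neurons are made in the adult. Activated stem cells were sorted as GFAP::GFP+CD133+EGFR+CD24- and quiescent stem cells as GFAP::GFP+CD133+CD24-, so both carried a GFP reporter under the GFAP promoter and the groups differed in the EGF receptor gate. Each population was measured on 3 arrays that the labels call biological replicates; the labels give neither age beyond adult, nor strain, nor whether animals were pooled. Values are log2 MAS5 signals, a scale on which a difference of 1 is a doubling, and differences are activated minus quiescent, with the SE of the limma fit and a Benjamini-Hochberg adjusted p over all tested genes. Levels of different genes are not compared, because each probe set has its own brightness.

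Type I interferons signal through a receptor made of IFNAR1 and IFNAR2 and type II interferon through IFNGR1 and IFNGR2. Janus kinases bound to these receptors activate STAT factors, which with IRF factors switch on a large set of antiviral genes through a promoter element called the ISRE, and, for type II interferon, the GAS element. Class I molecules, a heavy chain paired with beta-2 microglobulin, display peptides that the TAP transporter brings into the endoplasmic reticulum, and their genes are expressed in many cells without infection and raised further by interferon. In the brain class I genes are best known from microglia and endothelial cells.

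Several measures of the arrays moved with the groups. Hybridisation controls averaged 13.7 ± 0.05 on activated and 14.3 ± 0.53 on quiescent arrays (SD, n = 3 each). Quiescent array 1, at 14.9, stood above the other quiescent arrays, at 14.01 and 14.04. The gap between the Gapdh 3′ and 5′ control probe sets, a sign of RNA quality, was 1.37 ± 0.17 on activated and 2.05 ± 0.52 on quiescent arrays, and the median signal of all probe sets was 6.70 ± 0.23 on activated and 7.25 ± 0.17 on quiescent arrays. Likewise, the array background, the 95th percentile of 27 probe sets for bacterial transcripts, averaged 4.60 ± 0.07 on activated and 5.67 ± 0.37 on quiescent arrays. A two-sided exact permutation test gave p = 0.1 for each of these measures, which is the lowest value possible with 3 arrays a group. The gap between the actin 3′ and 5′ control probe sets, a second sign of RNA quality, overlapped between the groups. It was 0.07 ± 0.16 on activated and -0.05 ± 0.16 on quiescent arrays, the opposite direction to Gapdh. For the actin gap the two-sided exact permutation test gave p = 0.4. Marker genes of other cell types differed in both directions. The summed linear signal of 12 endothelial genes was 253 to 354 on activated and 1799 to 4264 on quiescent arrays, that of 10 pericyte genes 350.3 to 596 on activated and 4723 to 9041 on quiescent arrays, and that of 8 oligodendrocyte genes 2196 to 5504 on activated and 16676 to 65837 on quiescent arrays. The 17 microglial genes summed to 441 to 530 on activated and 1018 to 1586 on quiescent arrays, and 7 of them were at background on every activated array and 7 on every quiescent array. Of the 17, 14 were under the filter. Of the 3 tested, 1 was lower and 0 were higher, with differences from -4.38 to 1.08. Array background was itself higher on quiescent arrays, and its part in this sum was not tested. The 7 neuronal genes summed to 14469 to 18860 on activated and 7456 to 9759 on quiescent arrays, with 2 of 6 tested genes higher, and the 8 ependymal genes to 1726 to 2672 on activated and 1265 to 1673 on quiescent arrays. The ependymal sum hides opposed genes: of 3 tested, 1 was higher and 2 were lower, with differences from -3.59 to 4.10. The 11 T and NK cell genes summed to 4018.5 to 5383 on activated and 3800.2 to 7306 on quiescent arrays, overlapping ranges. Of these 11 genes, 3 were tested and 0 called, and 2 were at background on every activated array and 6 on every quiescent array. Among the defining markers, Aif1 was at background on all 6 arrays, Cx3cr1 on 2 of 3 activated and 0 of 3 quiescent arrays, and Pecam1 on 3 of 3 activated and 0 of 3 quiescent arrays, and Cd3e, Cd3g and Cd3d each on 2 of 3 activated and 3 of 3 quiescent arrays. The part that other cells or RNA quality have in the values below was not tested, and in these bulk samples fewer cells of a type and less RNA per cell cannot be told apart.

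Stem cell markers were detected in both groups. The 10 stem cell and astrocyte genes of the marker list, among them Gfap, Slc1a3 and Slc1a2, were above background on all 6 arrays. Their summed signal was 42549 to 50077 on activated and 102269 to 162539 on quiescent arrays. Of these 10 genes, 7 were lower and 1 was higher, or 70% and 10%, against 17.6% and 17.3% of all tested genes.

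Of the 27 tested members, 7 were lower and 1 was higher in activated cells. The lower genes were B2m, H2-K1 and Tapbp of class I presentation, Ifit3, Rsad2 and Ifitm3 of the interferon-induced genes, and the receptor subunit Ifngr1, and the higher gene was Ifit2. Among all tested genes 17.6% were lower and 17.3% were higher, against 25.9% and 3.70% of these members, and the share called in either direction was 34.9% among all genes and 29.6% among the members. The fitted difference was below 0 for 22 of the 27, and the median was -0.82, where the median over all tested genes was 0.01. For 8 of the 27 the mean of the dimmer group was itself under the filter, so such genes entered the test through the brighter group and their counts are not support for a shift of the pathway.

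**Figure D1:**
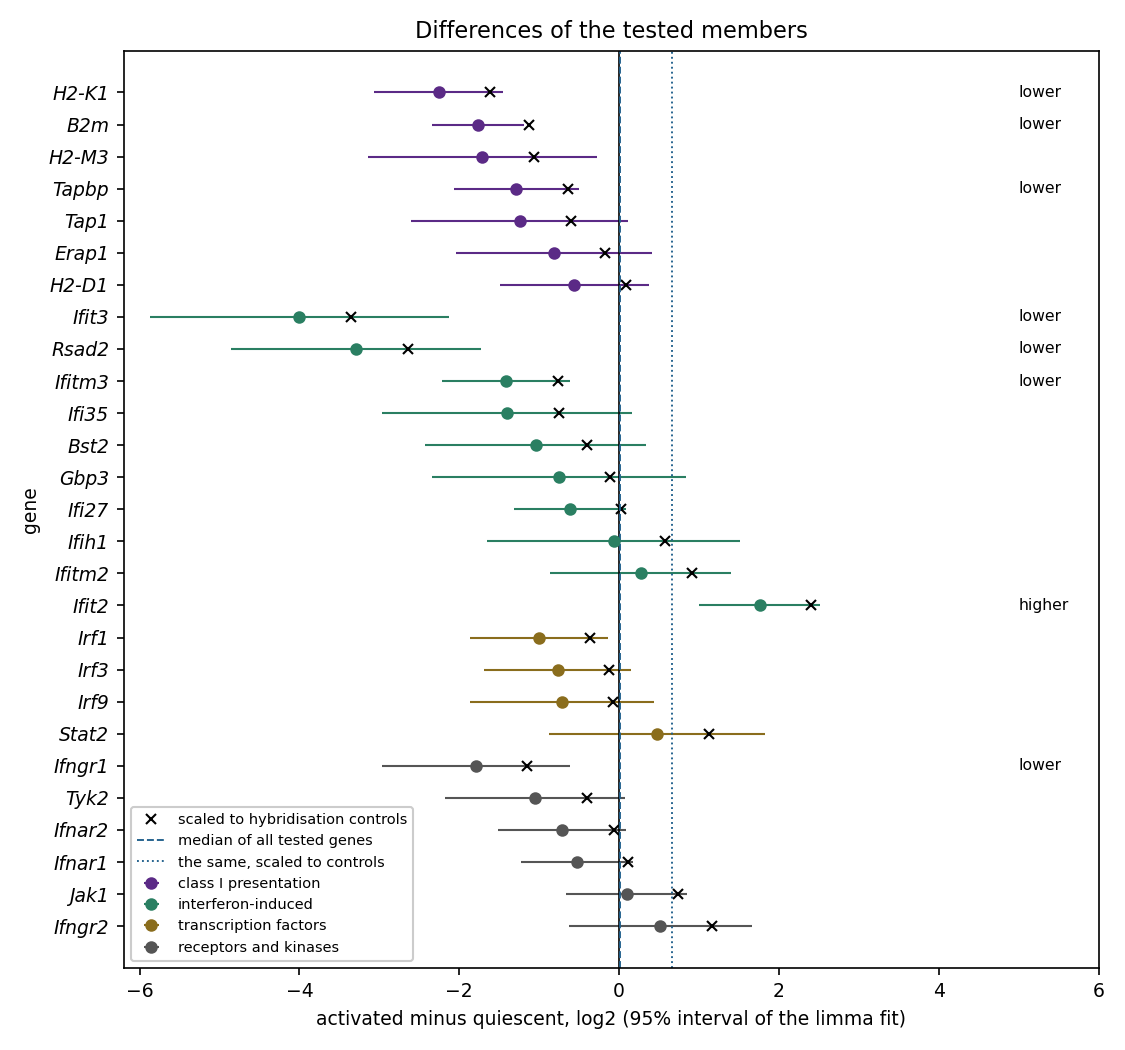
Difference between activated and quiescent cells for each of the 27 tested genes (x axis, log2; y axis, genes grouped by role). Circles are values on the deposited scale with the 95% interval of the limma fit as lines, crosses are the same differences after scaling to the hybridisation controls, vertical lines mark 0 and the medians of all tested genes, and the words at the right mark genes that passed the test. Ifit3 and Rsad2 lie farthest to the left and Ifit2 alone is called to the right.

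The scaling of the arrays bore on these counts. On a scale set by the hybridisation controls, called the control scale below, the median difference was 0.66 over all tested genes and -0.17 over the 27 members. There 3 members were lower (H2-K1, Ifit3 and Rsad2) and 1 was higher (Ifit2), where 8.15% of all tested genes were lower, 26.4% higher and 34.6% either. The signs of H2-D1, Ifi27, Ifih1 and Ifnar1 turned. The control scale rests in part on quiescent array 1. Without that array, a combination chosen after seeing the data, the median difference was 0.36 over all tested genes and -0.58 over the members, and 6 members were lower and 1 was higher, where 10.7% of all tested genes were lower, 22.8% higher and 33.5% either. The calls of B2m (adjusted p = 0.00421), Tapbp (adjusted p = 0.0251) and Ifitm3 (adjusted p = 0.0176), absent on the control scale with all arrays, were then present, Ifngr1 had an adjusted p of 0.0548, and the signs of H2-D1 and Ifih1 alone were turned among those 4. All differences below are on the deposited scale unless stated, and so are relative to the average gene.

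Class I presentation genes were lower or did not pass. All 7 tested genes had differences below 0, where 49.7% of all tested genes did. Of the 7, 3 (42.9%) were lower, against 17.6% of all tested genes, and for 2 the activated mean was under the filter. The median difference was -1.29, or -0.64 on the control scale. H2-K1, a classical class I heavy chain, read 10.12, 10.47 and 9.59 on activated arrays, against 13.02, 12.11 and 11.82 on quiescent arrays. The groups did not overlap, and the gene was 4.78-fold lower in activated cells (difference -2.26 ± 0.36, adjusted p = 0.00105). B2m, the light chain shared by all class I molecules, read 10.35, 10.06 and 10.19 on activated and 11.80, 12.14 and 11.96 on quiescent arrays. The 3 arrays of each group lay close together, and B2m was 3.40-fold lower (-1.77 ± 0.26, adjusted p = 0.000587). On the control scale B2m missed the threshold (adjusted p = 0.0522).

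Tapbp encodes tapasin, which holds empty class I molecules at the peptide transporter. Its signals were 9.14, 9.68 and 9.24 on activated and 10.08, 11.08 and 10.76 on quiescent arrays. It fell by 1.29 ± 0.35 (adjusted p = 0.0168). This call did not hold on the control scale (adjusted p = 0.363), after median centring (adjusted p = 0.163) or without activated array 1, activated array 3 or quiescent array 2 (adjusted p = 0.0622, 0.0593 and 0.0671).

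The other class I genes did not pass. H2-M3, a nonclassical heavy chain that presents formylated peptides, read 5.34, 5.09 and 6.57 on activated and 7.74, 7.70 and 6.70 on quiescent arrays, without overlap (-1.71 ± 0.65, adjusted p = 0.0634). It passed under 6 of 17 alternative settings. Tap1, a subunit of the peptide transporter, read 5.28 to 5.98 on activated and 6.46 to 7.46 on quiescent arrays, again without overlap (-1.25 ± 0.61, adjusted p = 0.137). Erap1, the aminopeptidase that trims peptides for class I, differed by -0.82 ± 0.56 (adjusted p = 0.274), with overlapping arrays. H2-D1, the other classical heavy chain measured, differed by -0.56 ± 0.42 (adjusted p = 0.321), and its 95% interval ran from -1.49 to 0.37. Tap2, the partner of Tap1, was at or below background on 2 of 3 arrays of each group and was not tested.

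**Figure D2:**
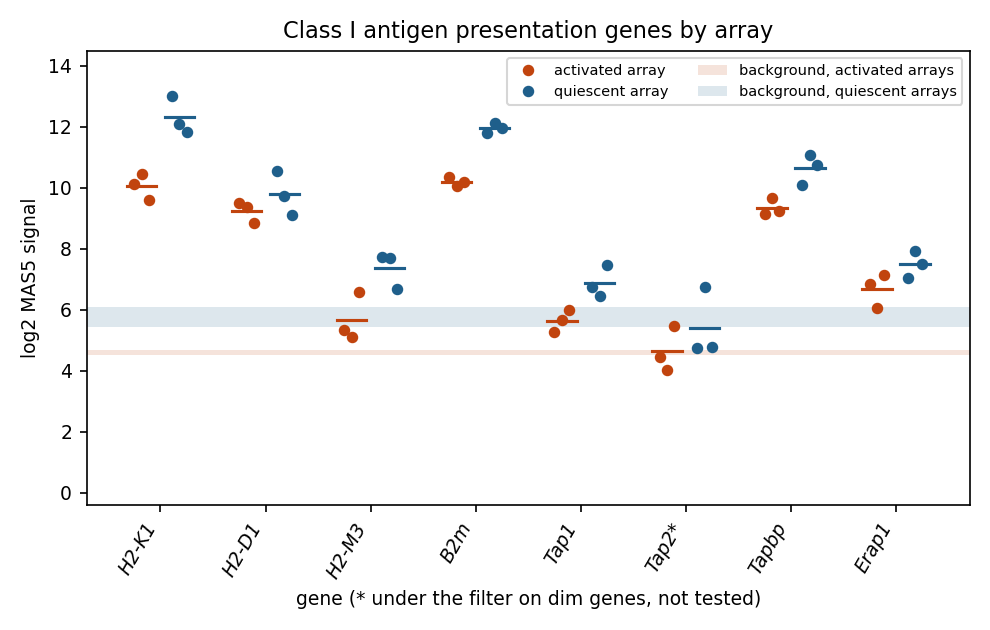
Log2 MAS5 signal (y axis) of 8 class I presentation genes (x axis) on each of the 3 activated and 3 quiescent arrays; points are arrays, short bars are group means, shaded bands give the range of array background in each group, and an asterisk marks a gene under the filter. The activated points lie below all quiescent points for H2-K1, H2-M3, B2m, Tap1 and Tapbp.

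Probe sets of the heavy chain genes are not equally specific. All 4 H2-K1 probe sets carry the _x_at suffix, with which the manufacturer marks probes that may hybridise to related transcripts. The 3 that were bright enough differed by -2.26, -1.16 and -2.26, and 2 of these passed when every probe set was tested by itself, a comparison chosen after seeing the data in which 31.9% of all probe sets passed, 16.3% being lower and 15.6% higher. Of 5 tested H2-D1 probe sets, with differences of -0.56 to -2.84, only the second brightest passed (-1.17 ± 0.35, adjusted p = 0.0276). The 2 B2m probe sets differed by -1.77 and -1.78.

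Interferon-induced genes included calls in both directions. Of 19 listed, 17 had a probe set of their own and 10 were tested, with 3 lower, 1 higher and 6 that did not pass. The share called, 40%, was near the 34.9% of all tested genes, and 6 of the 10 had a group mean under the filter. Their median difference was -0.90, or -0.26 on the control scale. Of the 3 genes of the Ifit family, whose proteins bind viral RNA or the translation machinery, 1 was higher, 1 was lower and 1 was under the filter. Ifit2 read 10.66, 9.96 and 10.58 on activated arrays, against 8.64, 8.46 and 8.83 on quiescent arrays. Every activated array was above every quiescent array, and Ifit2 was 3.38-fold higher in activated cells (1.76 ± 0.34, adjusted p = 0.00314). It passed under all 18 alternative settings, with differences of 1.61 to 2.40.

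Ifit3 ran the other way. It read 6.50, 2.94 and 5.97 on activated and 9.30, 9.26 and 8.85 on quiescent arrays. Activated array 2 was below its background, so that the difference of -4.0 ± 0.85 (adjusted p = 0.00473) stands for an at least 11.1-fold lower signal in activated cells. Without activated array 2 the difference was -2.90 (adjusted p = 0.004). Ifit1 was dim, at 4.96, 5.19 and 4.24 on activated and 7.36, 5.06 and 2.23 on quiescent arrays, and its groups overlapped.

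Rsad2 encodes viperin, an antiviral radical SAM enzyme. Its signal was 3.71, 5.84 and 6.11 on activated and 8.92, 8.35 and 8.26 on quiescent arrays, an at least 7.83-fold lower level in activated cells (-3.29 ± 0.71, adjusted p = 0.00515). Both dimmer Rsad2 probe sets, under the filter, also had no overlap, with differences of -2.13 and -2.94. H2-K1, Ifit3 and Rsad2 were lower and Ifit2 was higher under every alternative in which each was tested.

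The Ifitm genes encode small membrane proteins that hinder virus entry. Ifitm3 read 8.83, 8.91 and 9.33 on activated and 9.85, 10.85 and 10.62 on quiescent arrays, a 2.67-fold lower signal (-1.41 ± 0.36, adjusted p = 0.0125). It missed the threshold on the control scale (adjusted p = 0.286), after median centring (adjusted p = 0.0962) and with quiescent array 2 left out (adjusted p = 0.0519). Ifitm2 read 9.63, 8.49 and 7.91 on activated and 7.95, 8.45 and 8.82 on quiescent arrays, with a difference of 0.27 ± 0.51 (adjusted p = 0.706). Its arrays overlapped, and the interval from -0.86 to 1.40 leaves a change of either sign possible.

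The remaining tested genes of this group did not pass. Ifi27 differed by -0.62 ± 0.32 (adjusted p = 0.152), and its activated arrays, at 9.43 to 9.75, lay below its quiescent arrays, at 9.91 to 10.48. Bst2, or tetherin, which holds budding virus at the cell surface, also had no overlap, at 5.17 to 6.24 on activated and 6.46 to 6.95 on quiescent arrays (-1.05 ± 0.62, adjusted p = 0.213). Ifi35 differed by -1.40 ± 0.71 (adjusted p = 0.147), and the guanylate-binding GTPase Gbp3 by -0.75 ± 0.72 (adjusted p = 0.435). Ifih1, the cytosolic RNA sensor MDA5, differed by -0.07 ± 0.72 (adjusted p = 0.948).

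Among the dim genes, 4 of 9 had activated arrays that lay entirely below the quiescent ones, where 25.2% of all genes under the filter did. The reverse held for 0 of 9 and for 2.34% of all genes under the filter. Gbp2, another guanylate-binding GTPase, read 2.56, 6.01 and 0.07 on activated and 8.0, 7.86 and 7.51 on quiescent arrays, at least 6.48-fold lower. Xaf1, a proapoptotic interferon target, read 2.07, 6.37 and 0.59 on activated and 6.92, 7.47 and 9.23 on quiescent arrays, at least 6.32-fold lower. In both, activated array 2 was above background and below all quiescent arrays, and the other activated arrays were at background. With no filter these 2 of the 9 passed (adjusted p = 0.0146 for Gbp2 and 0.0192 for Xaf1). Of all genes 23.6% passed without the filter, 13.2% lower and 10.4% higher.

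Oas1a, an enzyme that makes the oligoadenylate activators of RNase L, read 0.28, 5.51 and 4.61 on activated and 7.23, 5.97 and 6.48 on quiescent arrays. Mx1, an antiviral dynamin-like GTPase, read 4.52, 2.22 and 5.27 on activated and 5.52, 5.78 and 6.40 on quiescent arrays. Both had groups that did not overlap, and neither passed without the filter (adjusted p = 0.0929 for Oas1a and 0.171 for Mx1). Usp18, which removes ISG15 from proteins and restrains type I receptor signalling, was at background on all 6 arrays. Oasl2 read 4.02, 5.65 and 5.03 on activated and 6.76, 5.45 and 6.12 on quiescent arrays, with overlap.

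**Figure D3:**
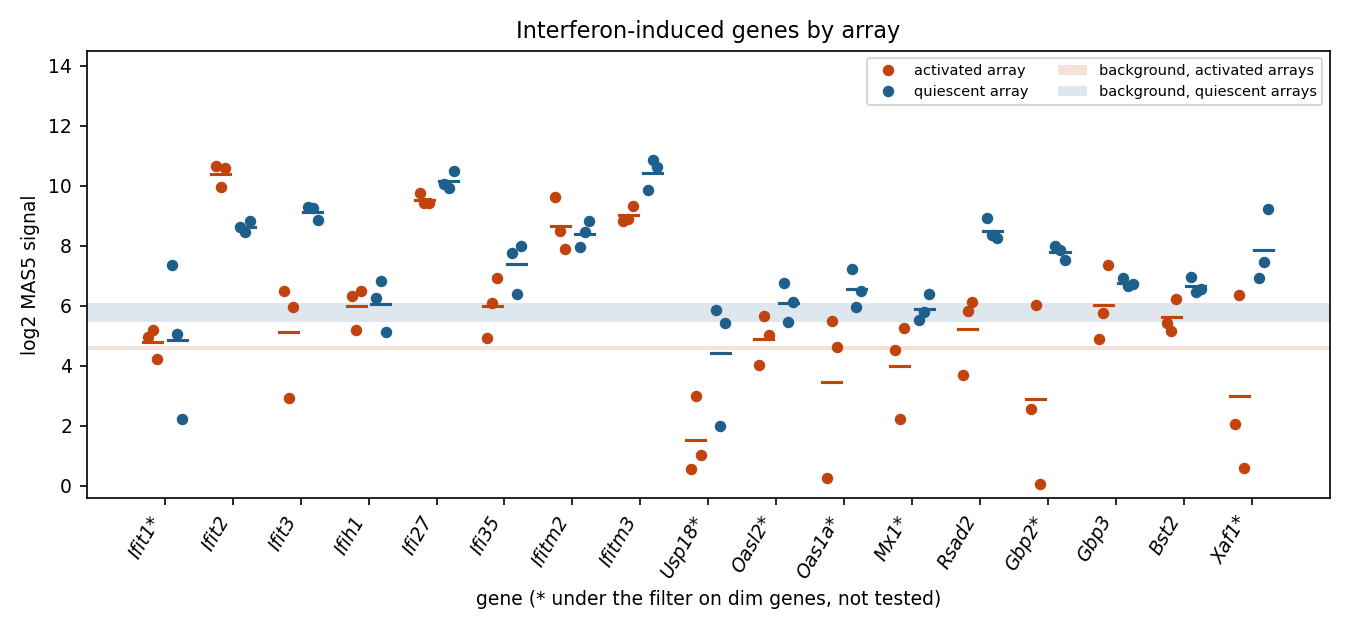
Log2 MAS5 signal (y axis) of 17 interferon-induced genes (x axis) on each of the 3 activated and 3 quiescent arrays; points are arrays, short bars are group means, shaded bands give the range of array background in each group, and asterisks mark genes under the filter. Ifit2 is the only gene of the plot whose activated points all lie above its quiescent points, and for Ifit3, Rsad2, Gbp2 and Xaf1 at least 1 activated point lies below the activated background.

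Of the 6 receptor and kinase genes, all tested, 1 was lower and 0 were higher. The share called was 16.7%, against 34.9% of all tested genes, of which 17.6% were lower. Ifngr1, the ligand-binding chain of the type II interferon receptor, read 6.28, 7.20 and 6.16 on activated and 8.01, 8.15 and 8.86 on quiescent arrays. It was 3.47-fold lower in activated cells (-1.79 ± 0.53, adjusted p = 0.0238), a call that held under 12 of 18 alternatives. It was lost under each of the quantile, median and control scalings (adjusted p = 0.0647, 0.0994 and 0.188) and without activated array 1, activated array 3 or quiescent array 3 (adjusted p = 0.0750, 0.0798 and 0.0637). Ifngr2, the second chain of that receptor, read 8.07, 8.81 and 7.73 on activated and 6.95, 7.99 and 8.12 on quiescent arrays (0.52 ± 0.52, adjusted p = 0.459). Its other probe set read 6.27, 5.71 and 7.05 on activated and 8.15, 7.63 and 8.19 on quiescent arrays, and was lower when tested by itself (-1.65 ± 0.56, adjusted p = 0.0447). The direction of Ifngr2 therefore depends on the probe set.

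Both chains of the type I receptor had differences below 0 that did not pass. Ifnar1 read 9.06, 9.30 and 9.25 on activated and 9.66, 9.78 and 9.76 on quiescent arrays, without overlap and with a small spread in each group (-0.53 ± 0.32, adjusted p = 0.213). Ifnar2 differed by -0.71 ± 0.36 (adjusted p = 0.147). The kinases Jak1, which serves both receptor types, and Tyk2, which serves the type I receptor, did not pass. Tyk2 read 7.69, 7.73 and 7.72 on activated and 8.37, 9.77 and 8.14 on quiescent arrays (-1.05 ± 0.51, adjusted p = 0.130), without overlap. Jak1 differed by 0.09 ± 0.34 in its brightest probe set (adjusted p = 0.849). Its second brightest probe set read 9.61, 9.52 and 9.57 on activated and 10.40, 10.48 and 10.63 on quiescent arrays and was lower (-0.94 ± 0.29, adjusted p = 0.0288).

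None of the 4 tested transcription factors passed, where 34.9% of all tested genes did. Stat2 and Irf9, which act together downstream of the type I receptor, differed by 0.47 ± 0.61 (adjusted p = 0.569) and -0.71 ± 0.52 (adjusted p = 0.304). Irf1, an activator of class I and type II interferon targets, read 7.87, 8.17 and 8.06 on activated and 9.21, 8.72 and 9.19 on quiescent arrays. Its groups did not overlap, and it missed the threshold (-1.0 ± 0.39, adjusted p = 0.0691). Irf3, which acts below RNA and DNA sensors, differed by -0.77 ± 0.41 (adjusted p = 0.171), while 1 of its 3 other probe sets read 6.70, 7.25 and 6.85 on activated and 9.31, 9.54 and 9.47 on quiescent arrays and was lower (-2.51 ± 0.41, adjusted p = 0.00129). That probe set alone of the 4 carries no _x or _a suffix. Irf3 was lower under 3 of 18 alternatives. These left out suffixed probe sets (adjusted p = 0.00117), averaged the probe sets (adjusted p = 0.0219) or left out quiescent array 2 (adjusted p = 0.0493). Irf7, the factor that amplifies type I interferon production, was dim and its arrays overlapped.

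**Figure D4:**
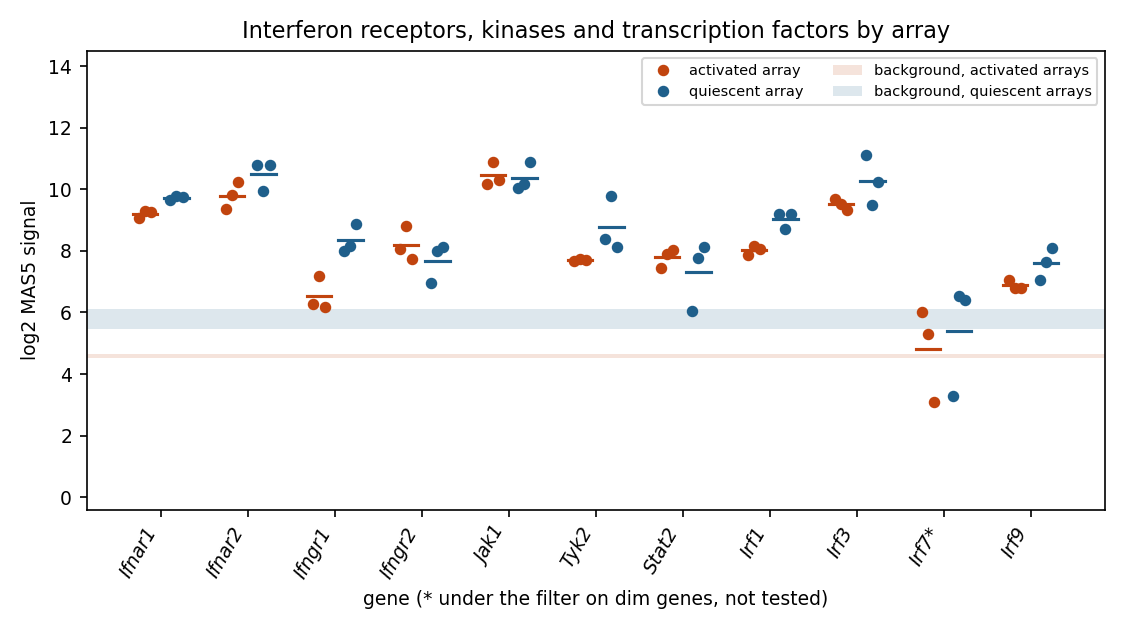
Log2 MAS5 signal (y axis) of 6 receptor and kinase genes and 5 transcription factors (x axis) on each of the 3 activated and 3 quiescent arrays; points are arrays, short bars are group means, shaded bands give the range of array background in each group, and an asterisk marks a gene under the filter. The activated points lie below all quiescent points for Ifnar1, Ifngr1, Tyk2 and Irf1, and the groups of the other genes overlap.

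Agreement between probe sets of a gene was checked for the 12 members with more than 1 tested probe set. The sign was the same in all tested probe sets of 10 genes and opposed in 2, Ifngr2 and Jak1. Over the 46 tested probe sets of the members, 13, of 11 genes, were lower and 1 was higher. H2-K1 and B2m each had more than 1 lower probe set. Among all probe sets tested this way 16.3% were lower, 15.6% higher and 31.9% either.

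**Figure D5:**
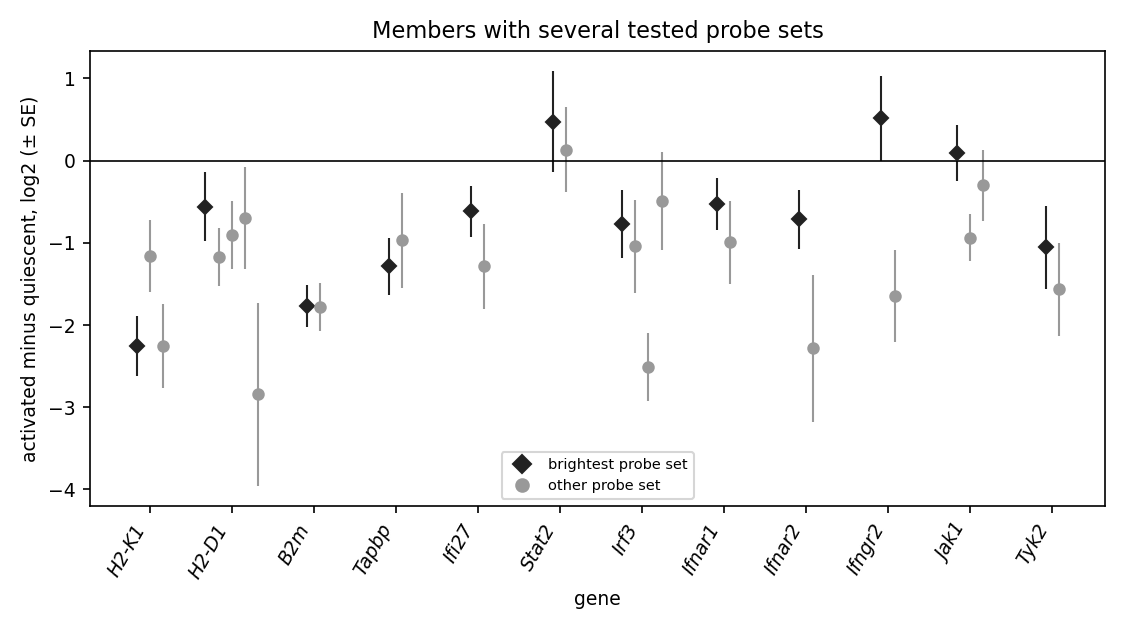
Difference between activated and quiescent cells (y axis, log2, ± SE of the limma fit of all probe sets) for every tested probe set of the 12 members that have more than 1 (x axis); diamonds are the brightest probe set and circles the others. Both B2m values lie at the same height, whereas Ifngr2 and Jak1 have values on both sides of 0 and Irf3 has 1 value far below the rest.

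The separation of the arrays was counted as well. Of the 27 tested members, 14 had all activated arrays below all quiescent arrays, or 51.9%, and 1 had the reverse, where 25.5% and 25.1% of all tested genes did. The 14 were 5 of 7 class I genes, 5 of 10 interferon-induced genes, 3 of 6 receptor and kinase genes and 1 of 4 factors. Among the 14, H2-M3, Tap1, Ifit3, Rsad2 and Bst2 had an activated mean under the filter, so they entered the test through the quiescent group. These counts, taken on the deposited scale only, are therefore not support for a shift of the pathway.

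Other genes of the same pathways were read from lists that do not repeat the members. Of 53 further interferon-induced genes with a probe set, 22 were tested, 4 were lower and 0 were higher. The 18.2% that were lower lay near the 17.6% of all tested genes. None was higher, where 17.3% of all tested genes were, so the share called in either direction, 18.2%, was under the 34.9% of all tested genes. The median difference was -0.92, or -0.28 on the control scale. For 4 of the 22 the mean of the dimmer group was under the filter, so they entered the test through the brighter group. These counts are not support for a shift of the pathway. The lower genes were Gbp7, a guanylate-binding protein, at 7.79, 8.36 and 7.80 on activated and 9.74, 9.33 and 10.47 on quiescent arrays (-1.86 ± 0.42, adjusted p = 0.00670), Eif2ak2, the RNA-activated kinase PKR (-1.84 ± 0.44, adjusted p = 0.00864), Igtp, an immunity-related GTPase (-2.32 ± 0.67, adjusted p = 0.0215), and Trim21, a cytosolic antibody receptor (at least 6.98-fold, adjusted p = 0.0279). Each of the 4 calls was lost on the control scale (adjusted p = 0.0634 to 0.0977).

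Of 12 tested genes of antigen presentation outside the list, 2 were lower and 1 was higher, 25.0% called against 34.9% of all tested genes, with a median of -0.60, or 0.04 on the control scale. For 1 of the 12, Fcgrt, the activated mean was under the filter, so it entered the test through the quiescent group. Fcgrt, the neonatal Fc receptor, a class I-like protein that carries immunoglobulin G, read 3.93, 3.08 and 3.18 on activated and 9.15, 8.63 and 9.18 on quiescent arrays. All activated arrays were at background, and the gene was at least 21.0-fold lower (adjusted p = 0.000125). Calr, the chaperone calreticulin, fell by 1.14 ± 0.29 (adjusted p = 0.0115), and Cd1d1, which presents lipids, was higher at 9.32, 9.24 and 9.25 on activated and 6.99, 8.20 and 7.36 on quiescent arrays (1.75 ± 0.44, adjusted p = 0.0118). All 8 class II genes with a probe set were under the filter.

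Of 17 tested sensors and signalling genes, 4 were lower (23.5%) and 3 were higher (17.6%), shares near the 17.6% and 17.3% of all tested genes, and the median was 0.06. For 4 of the 17, Socs3 among them, the mean of the dimmer group was under the filter. Such genes entered the test through the brighter group, so these counts are not support for a shift of the pathway. Tlr3, the endosomal receptor for double-stranded RNA, read 8.64, 9.92 and 8.57 on activated and 13.84, 13.50 and 12.51 on quiescent arrays. It was far above background on every array, and it fell by 4.24 ± 0.44 (adjusted p = 0.000102). Stat3 (-1.44 ± 0.36, adjusted p = 0.0111), the kinase Ikbke (at least 4.95-fold, adjusted p = 0.0279) and the SUMO ligase Pias1 (-1.01 ± 0.32, adjusted p = 0.0300) were also lower. On the control scale Tlr3 and Fcgrt kept their calls, while Calr, Stat3, Ikbke and Pias1 did not pass (adjusted p = 0.309, 0.202, 0.106 and 0.543). Socs3, a feedback inhibitor of Janus kinase signalling, was higher, at 8.79, 9.47 and 8.97 on activated and 7.57, 2.10 and 5.06 on quiescent arrays, at least 7.56-fold (adjusted p = 0.0146). Irf5 (1.10 ± 0.29, adjusted p = 0.0150) and the phosphatase Ptpn11 (0.91 ± 0.26, adjusted p = 0.0223) were higher as well.

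Promoter windows, from 250 bases before to 50 after each RefSeq start site in the mouse build GRCm38.p6, were searched on both strands for the ISRE core GAAANNGAAA and for GAS, TTCNNNGAA, and the motifs can overlap. Windows were found for 35 of the 39 members, including H2-T23, Ifi44 and Isg15, which have no values here. The ISRE core was in a window of 15 of these, 11 of 16 interferon-induced genes, 3 of 8 class I genes, 1 of 5 factors and 0 of 6 receptor and kinase genes, and in 3.99% of all 27025 genes. GAS was in a window of 9 members and in 9.55% of all genes. The windows of 5 called genes are shown, with matches to either motif in capitals. They are Ifit2, which rose, and the 4 genes that fell and held an ISRE core. H2-K1, Tapbp and Ifngr1 also fell, and their windows, not shown, held no exact match to either motif. Near matches were not searched.
Ifit2: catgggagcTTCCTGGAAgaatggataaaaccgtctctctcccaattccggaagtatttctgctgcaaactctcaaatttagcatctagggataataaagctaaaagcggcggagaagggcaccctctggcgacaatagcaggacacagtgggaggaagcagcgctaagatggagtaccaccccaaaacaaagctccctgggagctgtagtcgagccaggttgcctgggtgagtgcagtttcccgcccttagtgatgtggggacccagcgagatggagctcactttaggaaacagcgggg
Ifit3: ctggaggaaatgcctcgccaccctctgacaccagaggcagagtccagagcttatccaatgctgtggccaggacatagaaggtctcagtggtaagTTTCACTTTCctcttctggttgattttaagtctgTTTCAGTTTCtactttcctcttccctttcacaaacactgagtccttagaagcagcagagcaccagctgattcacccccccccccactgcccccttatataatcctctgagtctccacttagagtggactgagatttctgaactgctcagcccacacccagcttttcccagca
Rsad2: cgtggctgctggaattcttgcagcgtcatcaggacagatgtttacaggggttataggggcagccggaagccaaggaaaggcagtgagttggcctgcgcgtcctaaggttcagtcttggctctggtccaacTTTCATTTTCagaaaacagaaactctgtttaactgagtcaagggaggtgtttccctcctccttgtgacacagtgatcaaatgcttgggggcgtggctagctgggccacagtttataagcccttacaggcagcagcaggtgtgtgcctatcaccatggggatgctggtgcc
Ifitm3: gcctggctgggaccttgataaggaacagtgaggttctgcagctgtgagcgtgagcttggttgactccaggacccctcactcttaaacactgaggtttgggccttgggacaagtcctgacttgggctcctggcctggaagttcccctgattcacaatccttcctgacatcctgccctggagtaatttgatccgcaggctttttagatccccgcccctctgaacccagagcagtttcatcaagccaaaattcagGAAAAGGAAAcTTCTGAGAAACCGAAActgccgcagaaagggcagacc
B2m: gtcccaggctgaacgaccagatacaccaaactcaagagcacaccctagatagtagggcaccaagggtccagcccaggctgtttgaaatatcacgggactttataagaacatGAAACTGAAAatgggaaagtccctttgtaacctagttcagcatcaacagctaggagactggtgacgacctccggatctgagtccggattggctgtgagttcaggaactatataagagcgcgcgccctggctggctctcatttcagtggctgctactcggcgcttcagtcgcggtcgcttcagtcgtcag
Ifit2 (chr19:34550444-34550743, plus strand) held a GAS match that starts 241 bases before the start site and no ISRE core, and its second window had neither. Ifit3 (chr19:34583279-34583578, plus strand), which lies on the same chromosome, held 2 ISRE cores that start 156 and 122 bases before the start site. The Rsad2 window (chr12:26456403-26456702, minus strand) held 1 core at 120 bases before, and that of B2m (chr2:122147437-122147736, plus strand) 1 at 139 bases before. Ifitm3 (chr7:141010695-141010994, minus strand) held 2 cores, 2 and 19 bases after the start site, with a GAS match that overlaps the second.

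Of the 8 called members, B2m, Ifit3, Rsad2 and Ifitm3 had an ISRE core in these windows and H2-K1, Tapbp, Ifngr1 and Ifit2 did not. Genes with a core were also among those that did not pass, such as Ifih1, Ifitm2, Bst2, Gbp3, Erap1 and Stat2. A match describes letters in a window and not a bound factor. Lack of an exact match does not show that a window has no interferon-responsive element.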

How the data were processed

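RNA of 3 activated and 3 quiescent samples was measured on one-colour arrays. Per the labels' protocols, miRNeasy columns gave total RNA, which a Nugen kit amplified before biotin labelling. The deposited table holds log2 MAS5 signals, made by the authors per the submitters' processing notes, and its linear 2% trimmed mean was 500.0 on every array. No version or detection calls of MAS5 were used here. Such scaling removes differences in total RNA, and signals near background are noisy.

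Of 45101 probe sets, 64 controls were left out, and 34945 were annotated to 1 gene, 932 to several and 9160 to none. RefSeq's GRCm38.p6 gene table gave current symbols by Entrez identifier (99.4% found). The brightest probe set stood for each gene, and 11576 genes at or above the filter were tested in limma 3.58.1 (R 4.3.3; lmFit, then eBayes with trend). Genes were called at an adjusted p under 0.05. A fold is a lower bound where the lower group had an array at background: each of its arrays then enters at no less than its background. This bound allows for the background only and not for the spread between arrays. The members and all gene lists were chosen with earlier results of these data known. Named genes outside the members were the called ones of each pathway list, up to 4 per direction. In data simulated for this comparison over 11576 genes, 23.9% of 67 genes changed by 1, 82.3% of 62 changed by 2 and 100% of 71 changed by 4 on the log2 scale were recovered. No other genes were changed, and the simulation gave 144 calls, against 4044 in the data. The adjusted p threshold was therefore stricter there, and these rates need not hold for the data. Alternatives changed the scaling, the filter, the choice of probe set, the variance model or the pseudocount, or used values raised to background, a block for replicate number or 1 array fewer. Testing every probe set by itself, and the control scale without quiescent array 1, were chosen after seeing the data.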

Additional observations from a re-analysis of the deposited data

How the results depend on the processing

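Of 468 recomputed differences of single members, 423 kept their direction and side of the threshold, 15 lost a call, 14 gained one and 16 changed sign, all of these in genes that were not called. The count of lower members, 7 on the deposited scale, was 4 after median centring, 3 on the control scale, 11 with the mean of a gene's probe sets and 5 to 7 with 1 array left out. Of 46 single probe sets of the members 13, of 11 genes, were lower, where 16.3% of all tested probe sets were. On the control scale without quiescent array 1, 6 members were lower. Lower class I genes numbered 3, against 1 on the control scale, 5 without the variance trend and 2 to 4 with 1 array left out. Without probe sets suffixed _x, _s or _a the count was 1, because H2-K1 and B2m then had no probe set to test. Lower interferon-induced genes numbered 3, against 5 without the filter and 2 to 3 with 1 array left out. Over all genes, 3527 were higher and 1191 lower after median centring, and 3059 and 943 on the control scale. With 1 array left out 1313 to 2440 were higher, the lowest without activated array 2, and 1540 to 2176 lower.

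Signs turned on the control scale for H2-D1 (0.085), Ifi27 (0.026), Ifih1 (0.58) and Ifnar1 (0.11), after median centring for Ifih1 (0.49) and Ifnar1 (0.025), after quantile normalization for Ifih1 (0.70), and with the mean of probe sets for Ifngr2 (-0.57) and Jak1 (-0.38). With 1 array left out the difference ran from -0.54 to 0.34 for Ifih1, -0.21 to 0.65 for Ifitm2, -0.16 to 0.88 for Stat2 and -0.13 to 0.35 for Jak1. The cause was not tested.

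With the replicate number as a block, 7 members were lower and 1 higher, and 3934 genes were called. This replicate block has no basis in the design: deviations of same-numbered arrays correlated at 0.046, -0.052 and 0.021. Array background limits what can be said of the 9 dim members.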
